A study of Mus musculus with 4 samples.

Results

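The genes of cholesterol and fatty acid synthesis described here are 32 transcripts chosen by name, found as 32 of the 55450 gene rows in each count table. They fall into 5 role groups: 6 enzymes of the mevalonate pathway, 9 enzymes of the sterol branch, 6 regulators of the sterol response including a cytosolic sterol carrier, 6 genes of fatty acid synthesis, and 5 sterol-sensing nuclear receptors and their export and turnover targets. All 32 passed the filter on low counts, with 222 to 40262 reads per gene and library. No member passed the test between agonist and control at an adjusted p of 0.05. No member passed edgeR's test between the pools of cells either. DESeq2, which called far more of all tested genes there than edgeR did, called 1, Sqle. The sterol enzymes and the group of sterol-sensing LXR receptors and targets are described below by pool, with no test of the order of their libraries.

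Cells make cholesterol from acetyl-CoA through the mevalonate pathway, which builds isoprenoid units, and the sterol branch, which joins them into squalene, closes the rings and trims lanosterol to cholesterol. When membrane cholesterol is low, SCAP escorts the SREBP transcription factors from the endoplasmic reticulum to the Golgi, where they are cleaved and freed to switch on these enzymes, and INSIG proteins hold SCAP back when sterol is plentiful. When oxysterols and sterol intermediates accumulate, the LXR nuclear receptors turn on cholesterol export, SREBP-1c and through it fatty acid synthesis, and in dendritic cells and macrophages this balance bears on membrane lipids, antigen presentation and inflammatory genes.

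The libraries came from CD11c+ cells of the mesenteric lymph nodes of wild-type C57BL/6J mice, enriched with magnetic beads and cultured for 6 h in medium with serum. The agonist wells held 10 µM of an agonist of Ffar2, a receptor for short-chain fatty acids (the agonist's chemical name is not given in the sources used here), and the control wells held water (the labels call them untreated). Each group had 2 libraries, numbered 2 and 3, and the libraries that share a number came from the same pool of 2 nodes, whose cells were divided between the wells. Every library is thus wild type, and no well of receptor-deficient cells is part of these data. The mean RNA integrity number stated for the samples was high, libraries were made with SMART-seq v4 for low input, and the age of the mice is not given in the sources used here.

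Reads in genes numbered 49509736 and 59902172 in the agonist libraries and 43238375 and 52417584 in the control libraries, replicate 2 before replicate 3. The members held 0.440% and 0.492% of these reads in the agonist libraries and 0.423% and 0.454% in the control libraries. Levels are given as CPM, the reads of a gene relative to a library size scaled by TMM (trimmed mean of M-values). Itgax, the gene of CD11c, stood at 178 and 95.5 CPM in the agonist wells and 189 and 105 CPM in the control wells, and Zbtb46, a transcription factor of conventional dendritic cells, at 67.0 and 74.8 CPM against 56.6 and 72.7 CPM. Ffar2 itself was low, at 1.71 and 2.04 CPM with agonist and 4.04 and 3.87 CPM in control. Xist had 0 reads in both libraries of pool 3, and 21194 with agonist and 17776 in control in pool 2, whereas the Y-linked Ddx3y had 21461 reads with agonist and 18752 in control, both in pool 3, and 0 in both libraries of pool 2. Pool and sex of the mice therefore cannot be told apart. In bulk RNA, fewer cells of a type and less RNA per cell cannot be told apart either.

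The promoters of several members hold the DNA elements by which the sterol response and LXR are known to act, and 5 are shown here because their genes stand at the centre of the groups below. Sequences are from RefSeq promoters on GRCm38.p6, each 100 bases, written 5′ to 3′ on the strand of the gene. In the first 3 sequences capitals mark the LXR element, a pair of repeats spaced by 4 bases, in its reverse orientation. In the other 2 they mark the sterol element, searched as TCACNCCA.
Srebf1 (chr11:60210596-60210695, minus strand): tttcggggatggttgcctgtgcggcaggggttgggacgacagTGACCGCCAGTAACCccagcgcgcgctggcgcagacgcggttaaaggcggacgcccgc
Fasn (chr11:120824698-120824797, minus strand): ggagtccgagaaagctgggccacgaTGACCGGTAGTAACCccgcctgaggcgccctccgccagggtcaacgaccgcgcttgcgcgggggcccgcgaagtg
Abca1 (chr4:53159905-53160004, minus strand): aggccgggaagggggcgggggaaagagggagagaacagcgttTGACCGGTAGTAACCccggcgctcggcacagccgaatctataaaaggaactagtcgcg
Hmgcs1 (chr13:119690168-119690267, plus strand): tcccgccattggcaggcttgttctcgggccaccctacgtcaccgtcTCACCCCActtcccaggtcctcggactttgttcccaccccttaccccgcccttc
Srebf2 (chr15:82147061-82147160, plus strand): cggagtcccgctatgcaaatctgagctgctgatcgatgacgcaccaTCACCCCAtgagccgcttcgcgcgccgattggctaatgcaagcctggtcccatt

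The capitals of the LXR element lie 182 to 168 bases before the RefSeq start of Srebf1, 225 to 211 bases before that of Fasn and 67 to 53 bases before that of Abca1. The RefSeq start used for Srebf1 lies inside the annotated gene, which spans chromosome 11 from 60199089 to 60222581. RefSeq promoters were found for 25 of the 32 members, and 250 bases before the start were searched on both strands. The LXR element was searched as the letters in capitals, with any base allowed at the 2 places where the sequences differ. These letters were chosen to cover the known elements of these 3 genes, so their presence in 3 of 25 members, against 3 of 27025 genes (0.0111%), is a description only. TCACNCCA was present in 3 of 25 members (12%), Hmgcs1, Msmo1 and Srebf2, against 4.2% of all genes. CCAAT, the box bound by NF-Y, a partner of the SREBPs, was present in 18 of 25 members (72%), against 37.5% of all genes and 40% of 11307 tested genes with a RefSeq promoter. No match of one motif overlapped a match of another.

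Per length of exon, the members spanned a wide range of levels in these cells. Hmgcs1, the enzyme that makes HMG-CoA, was highest at 130.0 ± 18.1 RPKM (reads scaled to exon length and library size; mean and SD of all 4 libraries). Acly, which cleaves citrate to supply cytosolic acetyl-CoA, followed at 113 RPKM, and Cyp51, the lanosterol demethylase, stood at 78.4 RPKM. Srebf2, the gene of the SREBP that chiefly drives cholesterol synthesis, had 71.1 RPKM, against 6.77 RPKM for Srebf1, whose product favours fatty acid genes. Of the genes that hold SREBPs back, Insig2 (23.9 RPKM) was higher than Insig1 (1.87 RPKM) in every library. Of the LXR genes, Nr1h2 (LXR beta) had 19.6 RPKM and Nr1h3 (LXR alpha) 14.3 RPKM, and their library values overlapped.

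The lowest 5 were Elovl6 (2.09 RPKM), Insig1, Abca1 (1.85 RPKM), Scap (1.16 RPKM) and Acaca (1.04 RPKM), the gene of acetyl-CoA carboxylase. The order of neighbours should be read loosely, because 28 of the 31 neighbouring pairs overlapped between libraries. Every library of the upper gene was above every library of the lower one in 3 steps, those below Acly, Sqle and Fdps. With the longest protein-coding transcript as length, 9 members moved by more than 1.5-fold, among them Msmo1 (199 against 66.3 RPKM by all exons) and Fdps (14.6 against 4.79 RPKM), and the upper 11 and lower 5 held the same genes. Fdps shares 26.7% of its exon length with the annotated gene Gm43738 on the same strand, where reads cannot be assigned to 1 gene. Fdft1 shares 18.3% with Ctsb on the opposite strand, where this depends on whether the counting used strand, a setting not given here. The shares with genes on the opposite strand were 13.2% for Scap, 12.1% for Hmgcs1 and 9.22% for Idi1. One pseudogene is named after Nr1h2.

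**Figure D1:**
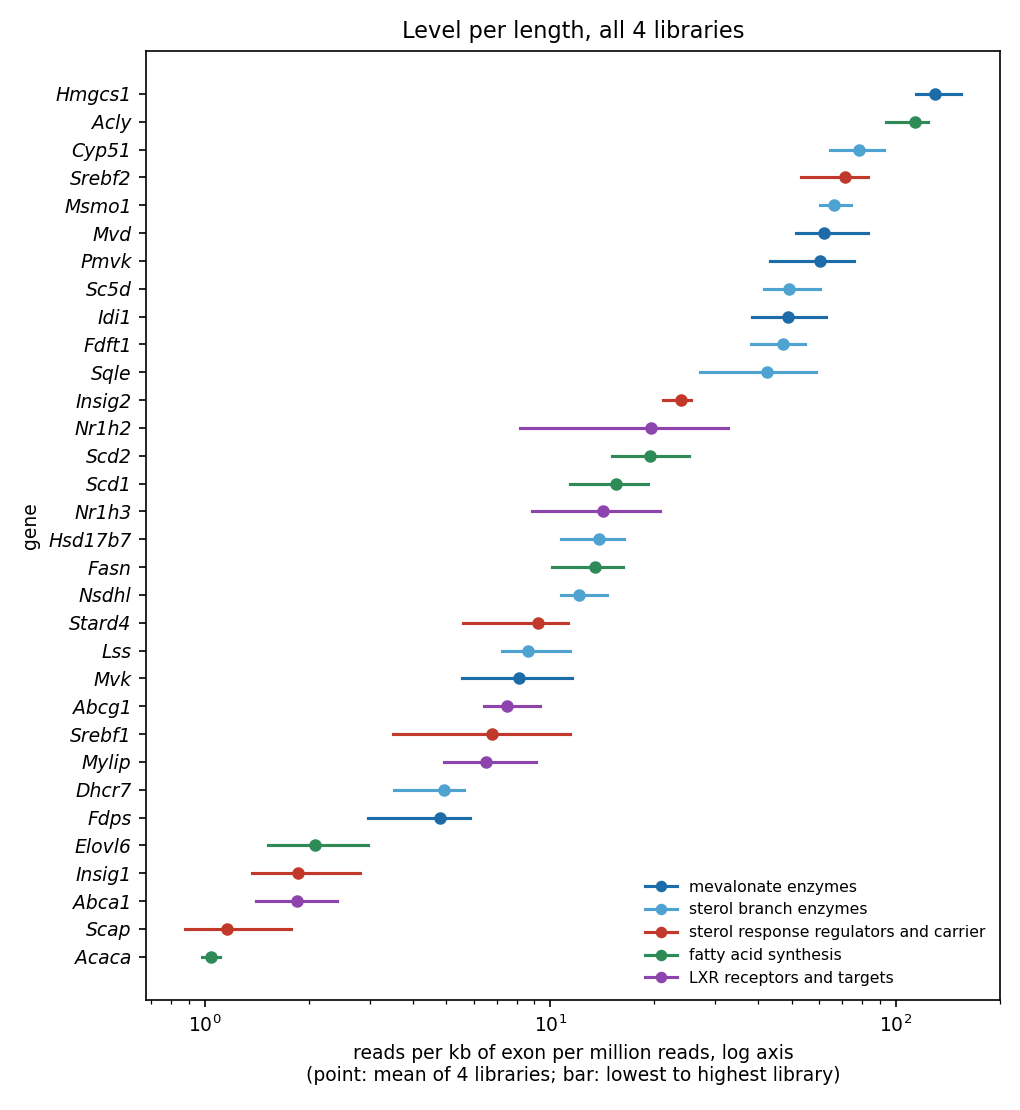
Level of each of the 32 members in RPKM on a log axis. The point is the mean of 4 libraries, the bar runs from the lowest to the highest library, and the colour gives the role group. Hmgcs1 (130.0) is at the top and Acaca (1.04) at the bottom, and most neighbours overlap.

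In the agonist comparison 0 of 32 members were called by edgeR's quasi-likelihood test adjusted over 18297 genes, against 0% of all tested genes. An unadjusted p under 0.05 was found for 0 members, against 1.58% of all genes (0.639% higher and 0.94% lower). Members ranged in log2 fold change from -0.39 (Stard4) to 0.98 (Nr1h2). The median was 0.10, against -0.05 over all tested genes. With the pool as a replicate block 0 members and 0.00547% of all genes (1 gene, Igha, not a member) were called. At an unadjusted p under 0.05 the blocked fit had 1 member, Nr1h2, which was higher, against 3.53% of all genes (1.69% higher).

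The p-values of the fit without a block measure the spread between libraries of a group, which holds the difference between the pools as well. Limits were wide with 2 libraries a group. Without the block the 95% interval of a member reached 0.61 log2 units to each side for Msmo1, the narrowest, and 1.135 for Nr1h2, the widest. With the block the SE of Sqle went from 0.41 to 0.23 and that of Nr1h2 from 0.47 to 0.43. Nr1h2 then had a 95% interval from 0.07 to 2.00. Both agonist libraries were above both control libraries in 3 members (9.38%), Srebf2, Fasn and Nr1h2, against 11.4% of all genes. Both were below in 1 member (3.12%), Insig2, against 13.5% of all genes.

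**Figure D2:**
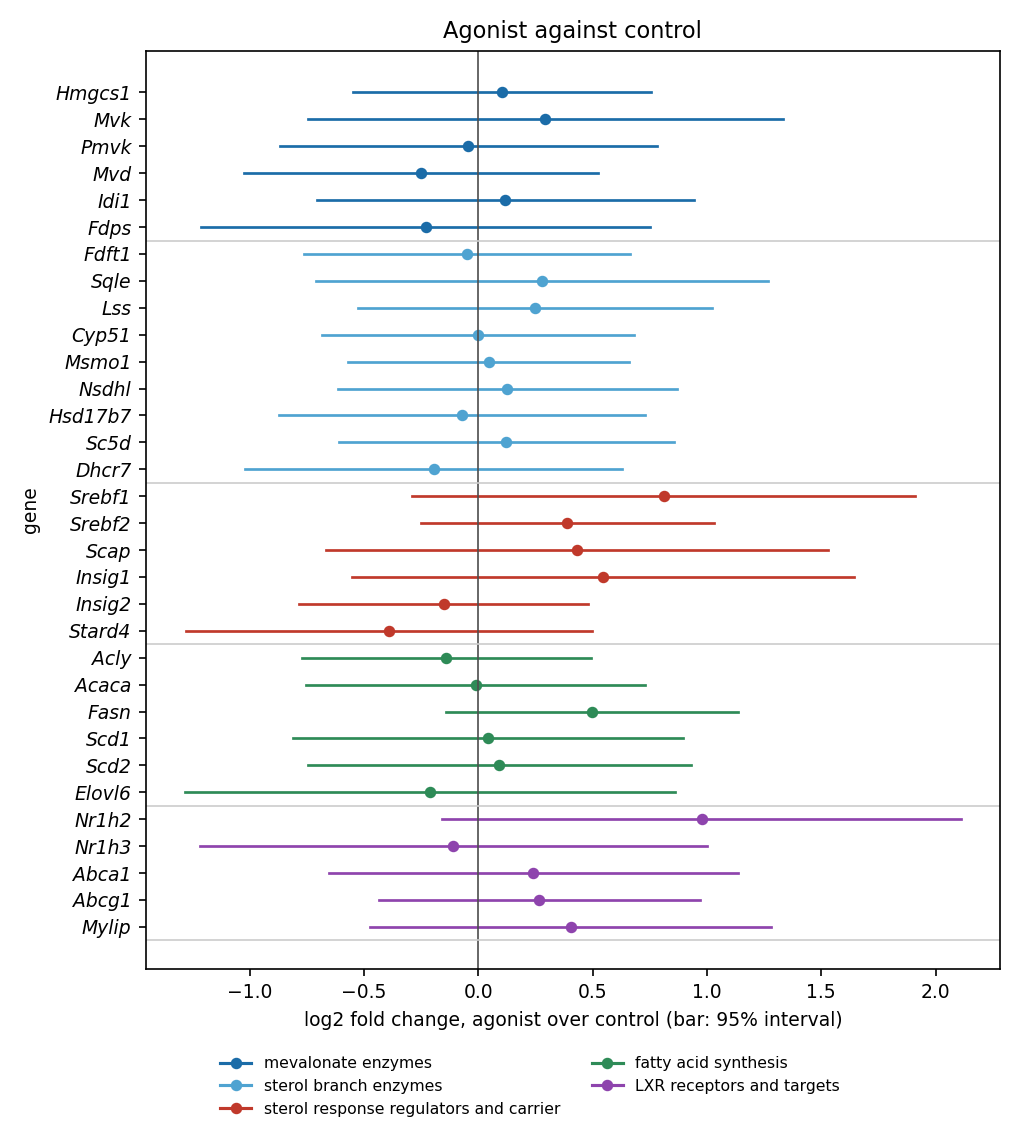
Log2 fold change of agonist over control for each member, with its 95% interval, grouped and coloured by role. The fit has no block for the pool. All 32 intervals shown cross 0, and Nr1h2 (0.98) and Srebf1 (0.81) lie farthest to the right. With the block the interval of Nr1h2, not drawn here, runs from 0.07 to 2.00.

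Among the 6 mevalonate enzymes, the agonist log2 fold changes lay between -0.25 (Mvd) and 0.29 (Mvk), and none passed the test. Hmgcs1 (ENSMUSG00000093930.2, chromosome 13, 119690379 to 119708260) had 527 and 709.8 CPM in the agonist wells and 542 and 609 CPM in the control wells. The log2 fold change was 0.10 (SE 0.27), and the agonist libraries lay on either side of the control libraries. Mvk, mevalonate kinase, had 17.0 and 30.9 CPM with agonist and 14.8 and 24.3 CPM in control (log2 fold change 0.29, SE 0.43). It was the one mevalonate enzyme with a higher CPM in the agonist well of both pools.

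Pmvk, the next kinase, had 74.3 and 129.5 CPM with agonist and 100.5 and 109.5 CPM in control. Mvd, which makes isopentenyl diphosphate, had 102 and 109.0 CPM in the agonist wells and 155 and 96.0 CPM in the control wells, and control replicate 2 was the highest library. Fdps, farnesyl diphosphate synthase, had 12.5 and 24.6 CPM with agonist and 20.9 and 22.7 CPM in control. For all 3, agonist was below control in pool 2 and above it in pool 3, and their log2 fold changes were -0.04, -0.25 and -0.23. Idi1, the isomerase of the isoprenoid unit, had 135 and 221 CPM with agonist and 140.0 and 188 CPM in control, a log2 fold change of 0.12 (SE 0.34). The group median was 0.03.

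The 9 enzymes of the sterol branch had a median log2 fold change of 0.04. Sqle, squalene epoxidase, an early oxygen-dependent step, had 191 and 326 CPM in the agonist wells and 151 and 276 CPM in the control wells. Its log2 fold change was 0.28 (SE 0.41), and both pool 3 libraries were above both pool 2 libraries. Lss, which closes the sterol rings, had 78.1 and 123 CPM with agonist and 78.8 and 90.9 CPM in control (0.25, SE 0.32). Agonist replicate 3 was its highest library and the other three were close together.

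Cyp51 had 285 and 407 CPM in the agonist wells and 343 and 350.2 CPM in the control wells. The group means were 346 ± 86.8 CPM with agonist and 346 ± 5.37 CPM in control (SD, n = 2), and the log2 fold change was -0.0014 (SE 0.28). The control libraries nearly coincided and lay between the agonist libraries. Fdft1, squalene synthase, had 162 and 230.3 CPM with agonist and 221 and 185 CPM in control. Msmo1, which removes methyl groups from the sterol ring, had 372 and 456 CPM with agonist and 406 and 396 CPM in control. In both genes agonist replicate 2 was lowest and agonist replicate 3 highest.

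Of the later enzymes, Sc5d, a desaturase, had 203 and 294 CPM with agonist and 202 and 254 CPM in control. Dhcr7, the reductase of 7-dehydrocholesterol, had 20.5 and 32.8 CPM with agonist and 29.5 and 31.5 CPM in control. Agonist replicate 2 stood apart below the other three. Hsd17b7, a sterol ketone reductase, had 54.8 and 83.0 CPM with agonist and 61.5 and 83.4 CPM in control. Nsdhl, its partner in demethylation, lies on the X chromosome and had 30.8 and 41.6 CPM with agonist and 35.4 and 30.9 CPM in control. The log2 fold changes of these 4 lay between -0.20 (Dhcr7) and 0.13 (Nsdhl).

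The regulators held some of the larger fold changes, and in Srebf1, Srebf2, Scap and Insig1 the difference was larger within pool 2 than within pool 3. Srebf1 (ENSMUSG00000020538.15) had 64.2 and 33.0 CPM in the agonist wells and 19.8 and 35.7 CPM in the control wells. Its log2 fold change of 0.81 had an SE of 0.45 and a 95% interval from -0.29 to 1.91, with an unadjusted p of 0.1224 in edgeR's test and an adjusted p of 0.9999. Agonist replicate 2 was the highest library and control replicate 2 the lowest, and the pool 3 libraries nearly coincided. Within pool 2 the difference was 1.70 log2 units, and within pool 3 it was -0.11.

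Srebf2 (ENSMUSG00000022463.8, chromosome 15, 82147181 to 82205379) had 599 and 559 CPM with agonist and 382 and 503 CPM in control. The groups did not overlap, and the log2 fold change of 0.39 had an SE of 0.26 and a 95% interval from -0.25 to 1.03 (edgeR unadjusted p = 0.1908, adjusted p = 0.9999). The within-pool differences were 0.65 in pool 2 and 0.15 in pool 3. Scap had 13.3 and 6.52 CPM with agonist and 7.19 and 7.49 CPM in control, with 1 high library, agonist replicate 2. Insig1 had 8.73 and 4.97 CPM with agonist and 5.14 and 4.25 CPM in control, higher with agonist in both pools (log2 fold change 0.54, SE 0.45).

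Insig2 pointed the other way at a far higher level. It had 73.5 and 83.8 CPM in the agonist wells and 88.8 and 86.0 CPM in the control wells, without overlap, and a log2 fold change of -0.15 (SE 0.26). Stard4, which carries sterol through the cytosol, had 31.3 and 57.7 CPM with agonist and 53.7 and 63.0 CPM in control (-0.39, SE 0.37). Agonist replicate 2 was the low library. Insig2 and Stard4 were lower with agonist in both pools.

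**Figure D3:**
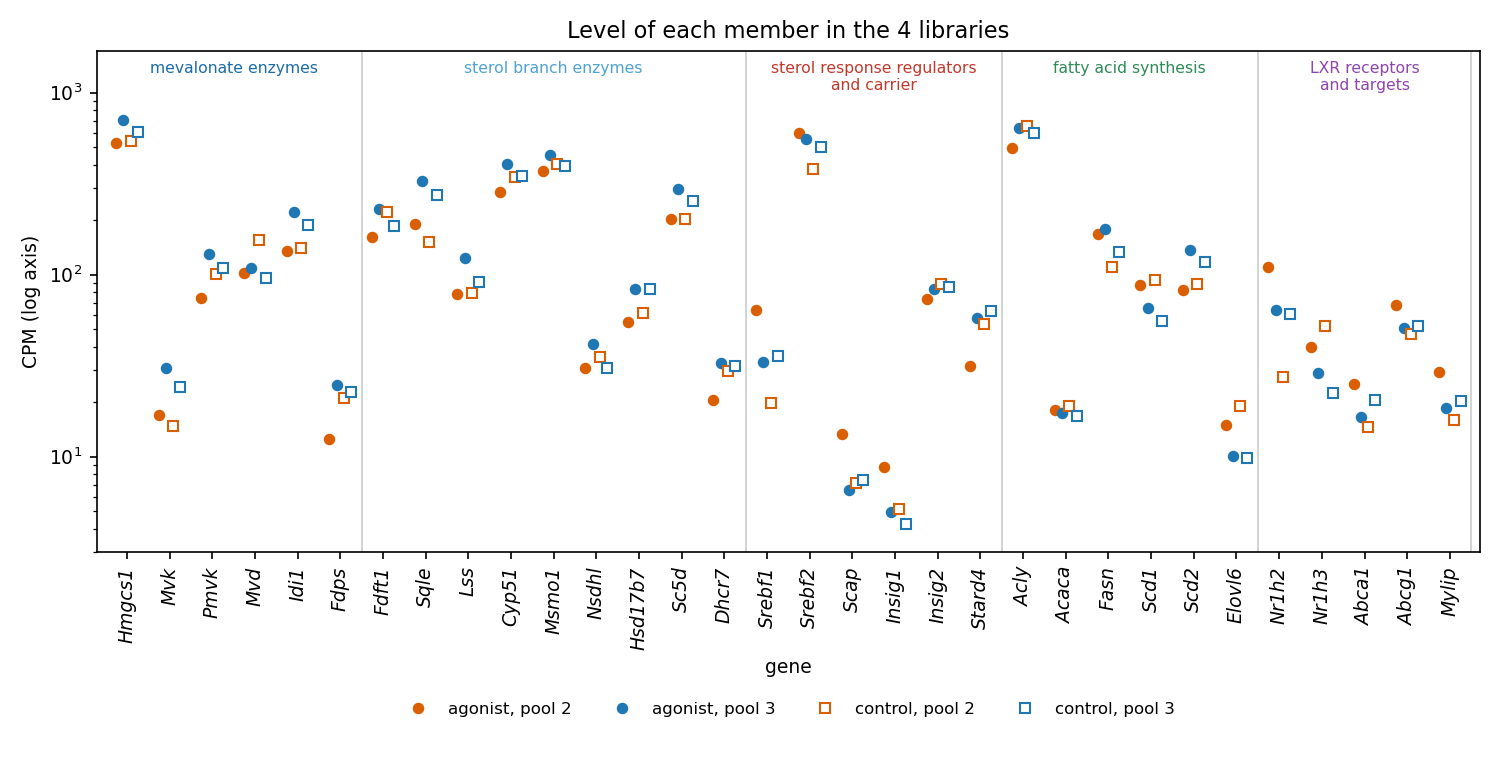
CPM of every member in each of the 4 libraries, on a log axis, with filled circles for agonist, open squares for control, orange for pool 2 and blue for pool 3. The orange symbols of Nr1h2 lie far apart (109.8 CPM with agonist and 27.5 CPM in control) and its blue symbols close together (64.3 and 61.0 CPM).

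In fatty acid synthesis, Fasn was the one member of 6 whose agonist libraries both lay above both control libraries. Fasn (ENSMUSG00000025153.9, chromosome 11, 120805846 to 120824547), which builds palmitate from malonyl-CoA, had 166 and 178 CPM in the agonist wells and 110.4 and 134 CPM in the control wells. The groups did not overlap, at 172 ± 8.34 CPM with agonist and 122 ± 16.3 CPM in control (SD, n = 2). Its log2 fold change of 0.50 had an SE of 0.26 and a 95% interval from -0.14 to 1.14, the unadjusted p in edgeR's test was 0.1059 and the adjusted p 0.9999, so it did not pass. The within-pool differences were 0.59 in pool 2 and 0.42 in pool 3, and with the pool as a block edgeR gave 0.50 (SE 0.23, unadjusted p = 0.05986, adjusted p = 0.9998).

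The other 5 had fold changes nearer 0. Acly had 496 and 642 CPM with agonist and 657 and 599 CPM in control (log2 fold change -0.14, SE 0.26). Acaca was nearly level across the libraries, at 18.0 and 17.4 CPM with agonist and 18.9 and 16.8 CPM in control. Its log2 fold change was -0.01 (SE 0.31), with a 95% interval of -0.76 to 0.73.

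Scd1 and Scd2, neighbouring genes on chromosome 19 that encode desaturases of stearoyl-CoA, followed opposite orders of the pools. Scd1 had 88.2 and 66.0 CPM in the agonist wells and 94.1 and 55.8 CPM in the control wells, so both pool 3 libraries lay below both pool 2 libraries. Scd2 had 82.6 and 137 CPM with agonist and 88.7 and 118 CPM in control, the opposite order of the pools. Their agonist log2 fold changes were 0.04 and 0.09. Elovl6, which lengthens palmitate, had 14.8 and 10.1 CPM with agonist and 19.1 and 9.82 CPM in control, and like Scd1 it was lower in pool 3.

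Nr1h2 had the largest fold change of all members, and it rested on pool 2. Nr1h2 (ENSMUSG00000060601.13, chromosome 7, 44549616 to 44553951) had 109.8 and 64.3 CPM in the agonist wells and 27.5 and 61.0 CPM in the control wells. The groups did not overlap, but agonist replicate 3 was little above control replicate 3. Its log2 fold change of 0.98 had an SE of 0.47 and a 95% interval from -0.16 to 2.11 (edgeR unadjusted p = 0.08042, adjusted p = 0.9999). The difference was 2.00 log2 units within pool 2 and 0.08 within pool 3. The blocked fit gave 1.03 (SE 0.43, unadjusted p = 0.0388, edgeR adjusted p = 0.9998).

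Nr1h3 had 40.2 and 28.8 CPM with agonist and 52.2 and 22.3 CPM in control, with both pool 2 libraries above both pool 3 libraries. Its log2 fold change was -0.11 (SE 0.46). Abca1, a pump that loads cholesterol onto lipid-poor apolipoprotein, had 25.0 and 16.5 CPM with agonist and 14.6 and 20.5 CPM in control. Abcg1, which exports cholesterol to mature lipoprotein particles, had 68.1 and 51.0 CPM with agonist and 47.0 and 52.0 CPM in control. Mylip, a ubiquitin ligase that lowers uptake of lipoprotein, had 29.4 and 18.6 CPM with agonist and 15.96 and 20.3 CPM in control. In these 3 targets of LXR, control replicate 2 was lowest and agonist replicate 2 highest. In pool 3 the agonist library was below control in all 3, with differences of -0.31 log2 units for Abca1, -0.03 for Abcg1 and -0.13 for Mylip. Their log2 fold changes were 0.24 (SE 0.37), 0.27 (SE 0.29) and 0.40 (SE 0.36).

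Set out by pool, the sterol enzymes and the LXR group differed in their directions. Of the 15 enzymes of the mevalonate pathway and sterol branch, 14 had more CPM with agonist in pool 3, against 49.2% of all genes, and 3 in pool 2, against 43.6%. Their median differences were 0.22 log2 units in pool 3 and -0.17 in pool 2, against -0.0048 and -0.09 over all genes. With other scalings the count was 13 to 15 in pool 3 but reached 6 in pool 2 with total counts only, so several enzymes change direction there. Enzymes near 0 take part in these counts, such as Hsd17b7 in pool 3 (-0.0067) and Sc5d in pool 2 (0.0036). Of the 44 other tested genes of lipid handling described below, 29 had more CPM with agonist in pool 3 and 16 in pool 2. The shares over all genes include genes at far lower levels than these enzymes. Genes at a like level were not compared, so the order may not be particular to the enzymes.

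Of the 4 libraries, agonist replicate 2 had the lowest value and agonist replicate 3 the highest in 10 of the 15 enzymes (66.7%) and 11 of all 32 members (34.4%), against 12.2% of all genes. The same order held in 13 (29.5%) of the 44 other tested genes of lipid handling. With total counts only 4 of the 15 had that order, and with size factors of DESeq2 9 had it. The reverse pattern within pool 2 held in 6 members (18.8%), which had control replicate 2 lowest and agonist replicate 2 highest, against 10.9% of all genes. These were Srebf1, Srebf2, Nr1h2, Abca1, Abcg1 and Mylip, and 6 or 7 members had that order under the scalings tried. Of the 44 other genes of lipid handling, 7 (15.9%) had it. Both orders of the libraries were picked out after the values were seen and were not tested.

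Over the 32 members, agonist was above control in both pools in 7, against 21% of all genes, and below in both in 3, against 27.8%. The 7 were Mvk, Sqle, Sc5d, Srebf2, Insig1, Fasn and Nr1h2, and the 3 were Hsd17b7, Insig2 and Stard4. In 17 members agonist was above control in pool 3 and below it in pool 2, against 28.1% of all genes. In 5 members it was the other way round, against 22.5%. Among the 44 other tested genes of lipid handling these counts were 20 and 7. Whether the agonist difference itself differed between the pools could not be tested, because 1 library per condition and pool leaves no residual spread.

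**Figure D4:**
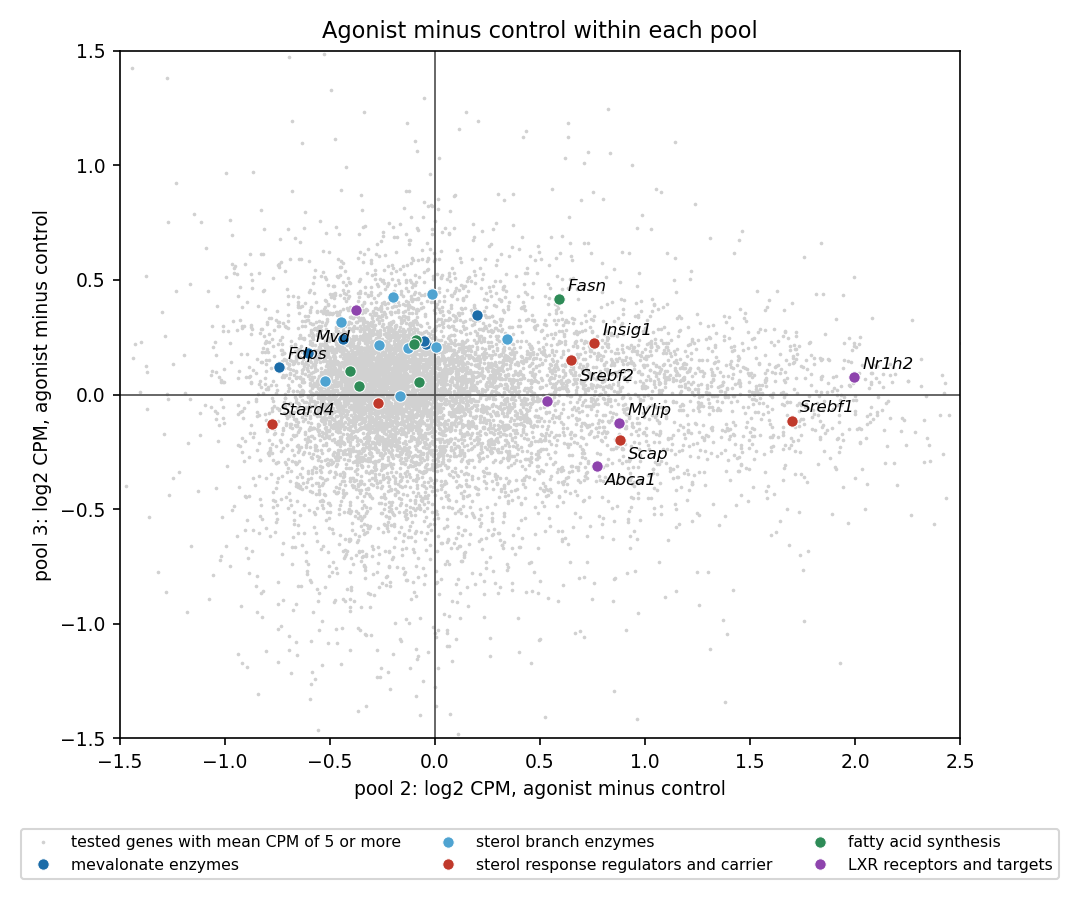
Difference in log2 CPM between agonist and control within pool 2 (x axis) and within pool 3 (y axis), members coloured by role and other tested genes with a mean of at least 5 CPM in grey. Nr1h2 lies at 2.00 and 0.08 and Srebf1 at 1.70 and -0.11, whereas most sterol enzymes lie above the horizontal line and left of the vertical one.

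The sterol enzymes were mostly higher in pool 3 than in pool 2, and Scd1, Elovl6 and Nr1h3 lower, none of them past the threshold. No member was called between the pools by edgeR at an adjusted p of 0.05, against 0.394% of all genes. An unadjusted p under 0.05 was found for 4 members higher in pool 3 (Mvk, Idi1, Sqle and Scd2), against 6.15% of all genes. It was found for 3 lower ones (Scd1, Elovl6 and Nr1h3), against 7.71%. This comparison sets 1 pool against 1 pool, with group as a covariate. Its p-values measure how far the pool difference disagreed between agonist and control wells, not how far pools of mice differ in general.

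Of the 15 sterol enzymes 14 had a positive log2 difference of pool 3 over pool 2, with a median of 0.43 against -0.0061 over all genes, and Mvd was the exception (-0.29). In 11 of the 15 (73.3%) both pool 3 libraries were above both pool 2 libraries, against 24% of all genes, and the number was 11 under every scaling tried. The same order held in 16 (36.4%) of the 44 other tested genes of lipid handling. Among the members Sqle had the smallest p, with 326 and 276 CPM in pool 3 and 191 and 151 CPM in pool 2, agonist before control. The difference was 0.82 log2 units (SE 0.23, 95% interval 0.30 to 1.35; edgeR unadjusted p = 0.00621, adjusted p = 0.152). DESeq2, which called far more of all tested genes between the pools than edgeR did, gave it an adjusted p of 0.0322. Mvk followed with 0.79 (SE 0.29, edgeR adjusted p = 0.2676).

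Between the agonist wells all 15 enzymes were higher in pool 3, with a median difference of 0.60 log2 units against -0.04 over all genes. Between the control wells 11 of 15 were higher in pool 3, with a median of 0.12 against 0.008 over all genes. The 5 LXR genes showed another order, since 0 of 5 were higher in pool 3 between the agonist wells (median -0.60) and 4 of 5 between the control wells (median 0.34). Nr1h3 was the exception and was lower in pool 3 in both conditions. Its log2 difference between the pools was -0.85 (SE 0.30, edgeR unadjusted p = 0.01901, adjusted p = 0.2439).

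Both pool 3 libraries were below both pool 2 libraries in 5 members (15.6%), Insig1, Acaca, Scd1, Elovl6 and Nr1h3, against 25.2% of all genes. The summed level of the 15 sterol enzymes was 3219 and 2747 CPM in pool 3 and 2263 and 2501 CPM in pool 2, agonist before control. Agonist replicate 3 was the highest library and agonist replicate 2 the lowest.

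**Figure D5:**
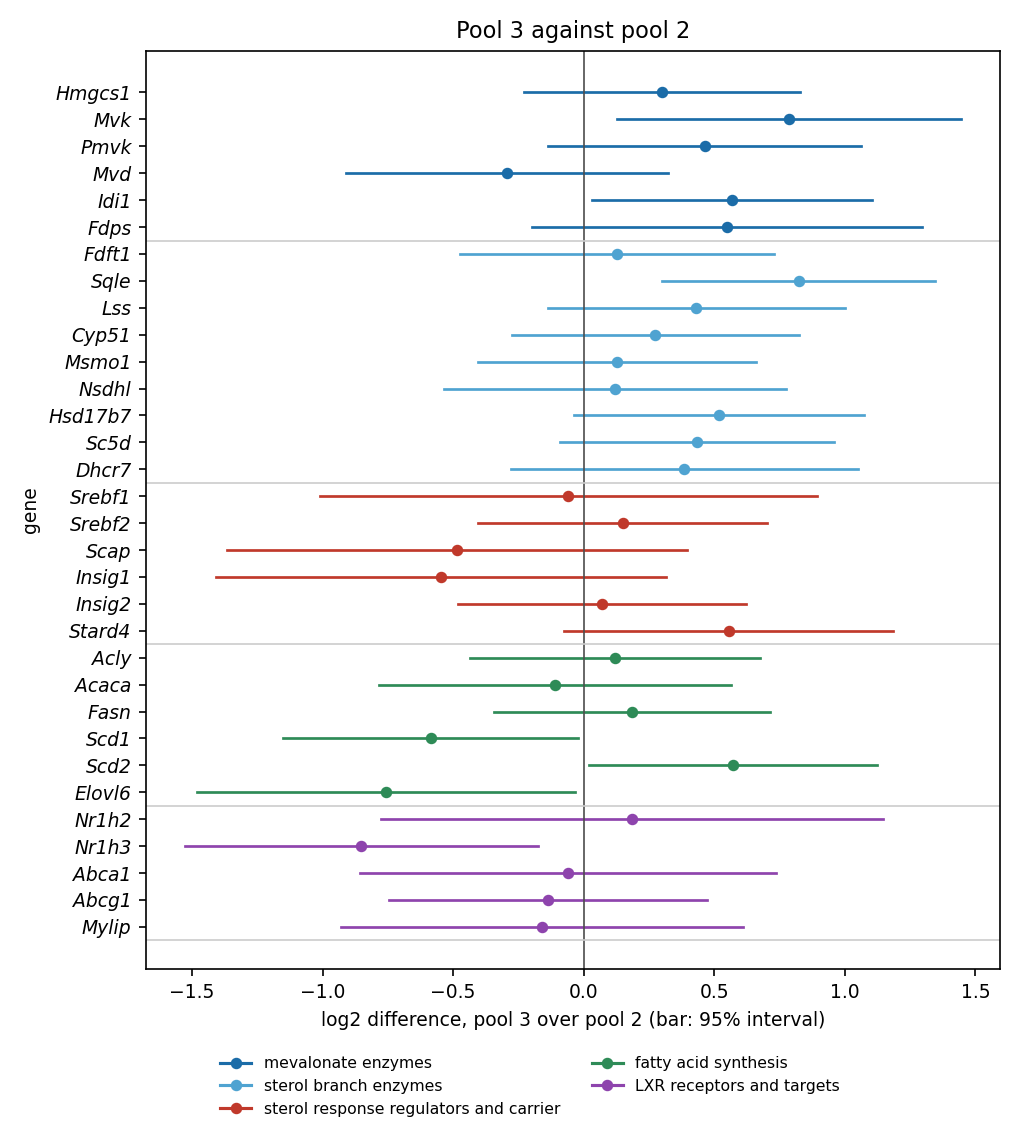
Log2 difference of pool 3 over pool 2 for each member with its 95% interval, with group as a covariate, grouped and coloured by role. The sterol enzymes lie mostly right of 0, with Sqle at 0.82, and Nr1h3 (-0.85), Elovl6 (-0.76) and Scd1 (-0.59) lie left of it.

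Other genes of lipid handling were listed beside the members, 47 in all, of which 46 were found and 44 tested. In the agonist comparison 0 of the 44 were called. An unadjusted p under 0.05 was found for 1 of the 44, which was higher, against 1.58% of all genes (0.639% higher), so the count is near the background. That gene was Cyp7b1, a hydroxylase that acts on oxysterols, with 99 and 213 reads in the agonist wells and 22 and 55 reads in the control wells. Its levels were 1.90 and 3.75 CPM with agonist and 0.505 and 1.05 CPM in control, without overlap. The log2 fold change was 1.85 (SE 0.67; edgeR unadjusted p = 0.03196, adjusted p = 0.9999), with 1.84 within pool 2 and 1.80 within pool 3. The blocked fit gave 1.87 (SE 0.55, unadjusted p = 0.008086, edgeR adjusted p = 0.9998).

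Of the genes with the next smallest p-values, 3 had the order of libraries seen in Srebf1. Slc25a1, the mitochondrial citrate carrier, had 16.04 and 7.93 CPM with agonist and 4.85 and 7.54 CPM in control. Aup1, a lipid droplet protein, had 99.9 and 44.3 CPM with agonist and 24.4 and 49.2 CPM in control. In both, and in the transporter gene Abca7 (312 and 282 CPM with agonist, 154 and 247 CPM in control), agonist replicate 2 was highest and control replicate 2 lowest. Acss2, which makes acetyl-CoA from acetate, had 43.9 and 16.5 CPM with agonist and 17.1 and 18.8 CPM in control. Rxra, a partner receptor of the LXRs, had 10.1 and 9.03 CPM with agonist and 13.5 and 12.8 CPM in control, lower in both pools (log2 fold change -0.45, SE 0.33).

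Between the pools 1 of the 44 passed the test, against 0.394% of all genes. Npc1, which moves cholesterol out of lysosomes, fell to 13.4 and 15.6 CPM in pool 3, against 97.5 and 52.1 CPM in pool 2, agonist before control. The log2 difference was -2.30 (SE 0.34, edgeR adjusted p = 0.03386), and the call was lost with a stricter filter and with total counts only. Ch25h, the cholesterol 25-hydroxylase, named after its values were seen, had 10.9 and 7.54 CPM in pool 3 and 0.846 and 1.58 CPM in pool 2. Its log2 difference was 2.96 (SE 0.49), just outside the threshold (edgeR adjusted p = 0.05103).

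No marker of other cell types passed the agonist test without the block, and 1 passed between the pools, in the list of plasmacytoid dendritic cells. With the pool as a block, Igha, in the list of plasma cells, was called lower with agonist (edgeR adjusted p = 0.01401). The summed level of 10 T cell markers was 566 and 264 CPM in the agonist wells and 810.2 and 416 CPM in the control wells, and that of 10 B cell markers was 1566 and 905 CPM with agonist and 1761 and 1136 CPM in control. All 10 T cell markers and 9 of 10 B cell markers were lower with agonist in both pools, against 27.8% of all genes. In 8 of 10 T cell and 7 of 10 B cell markers both pool 3 libraries were below both pool 2 libraries, against 25.2% of all genes. The summed macrophage and monocyte markers were 4988 and 3449 CPM with agonist and 5584 and 3308 CPM in control. Of these 9 markers, 1 was higher and 3 lower with agonist in both pools. The markers of conventional dendritic cells summed to 24130 and 28870 CPM with agonist and 27630 and 25800 CPM in control. Of these 12, 3 were higher and 3 lower with agonist in both pools, so the sum does not describe the whole list. Flt3, in that list, had 275 and 310 CPM with agonist and 147 and 279 CPM in control. Plasma cell markers summed to 206 and 139 CPM with agonist and 584 and 363 CPM in control, and those of plasmacytoid dendritic cells to 742 and 449 CPM with agonist and 986 and 625 CPM in control. Of 7 tested plasma cell markers, 2 were higher and 2 lower with agonist in both pools, so the sum does not describe the whole list. Of 6 plasmacytoid dendritic cell markers, 0 were higher and 5 lower in both. The 10 markers of adipocytes, which surround the nodes, summed to 47.0 and 45.2 CPM with agonist and 30.8 and 46.2 CPM in control. Of these 7 were tested, 2 higher and 3 lower with agonist in both pools. Lep was at 0 reads in every library, Adipoq had 8 and 0 reads with agonist and 45 and 36 in control, and Fabp4 had 93 and 137 reads with agonist and 53 and 186 in control. The part of these cells in the members' values was not tested.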

How the data were processed

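The submitters' processing notes name STAR 2.7 and HTSeq 0.11.1 as tools and GRCm38, also called mm10, as the genome build. The deposited files hold the authors' counts of reads for each gene, whole numbers without normalization. The strand setting and annotation release are not given in the sources used here, and all 55450 rows matched GENCODE M21. Lines that name no gene held 29.2% to 33.2% of reads and stayed out of library sizes and tests. Library depths are given above, and 4 libraries limit the precision.

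Genes passing the filter of edgeR (minimum count 10) numbered 18297, and TMM factors were 0.947 to 1.05. The quasi-likelihood test of edgeR 4.0.16 (R 4.3.3, limma 3.58.1) was two-sided, with group as the only term for the agonist and with group as a covariate for the pools. Benjamini-Hochberg adjustment covered all tested genes, and calls were made at an adjusted p under 0.05. Each SE is the size of the log2 fold change over the square root of F, and single-library log2 CPM used a prior count of 2. Alternatives were DESeq2 1.42.0, limma-voom, other scalings, prior counts, filters, the replicate block and leaving out each library. The fits were run on simulated data with large planted changes. For the agonist fits the simulated data held no difference between pools and no small changes. They therefore do not show how these fits perform where such differences are present. Python 3.11.15, NumPy 2.4.6, pandas 2.3.3 and matplotlib 3.10.9 made summaries and figures. The cell split between wells is stated in the labels' protocol, so the numbers pair the libraries (Pearson r of same-numbered deviations 0.288 across 18297 genes).

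The members and lists were chosen with earlier results of these data known. All 32 members are named, and of the other pathway genes the 6 with the smallest unadjusted agonist p and any past the threshold. Length choices, orders of libraries and scaling checks by pool were added after seeing the data.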

Additional observations from a re-analysis of the deposited data

How the results depend on the processing

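The count of members called for the agonist was 0 under every setting tried. Over all genes the count was 0, but 7 with DESeq2, 9 with no filter, 1 with the replicate block and 0 to 2 when each library was left out. Between the pools the count over all genes was 72, but 706 with DESeq2, 275 with limma-voom, 600 with no filter, 8 with a stricter filter and 5 with total counts only. DESeq2 called 1 of the 32 members there (Sqle), beside its 706 of 18297 tested genes. The 1 other pathway gene called became 4 with DESeq2, 3 with limma-voom, 4 with no filter and 0 with the stricter filter or total counts only. Members above control in both pools numbered 7, or 9 with size factors of DESeq2 and 10 with total counts only, and those below 3, or 2 and 6 with these scalings. In the paired fit, Nr1h2 had a log2 fold change of 1.03 and Fasn 0.50, and no call on a member changed. The log2 fold change turned positive for Acaca with size factors of DESeq2 (0.0164), DESeq2 (0.0165) and the stricter filter (0.0481). It did so for Cyp51 with size factors of DESeq2 (0.029), DESeq2 (0.029), no filter (0.0009) and the stricter filter (0.0495), for Fdft1 (0.0015) and Pmvk (0.0025) with the stricter filter and for Nr1h3 with limma-voom (0.0113). The pool difference of Insig2 was -0.0118 with total counts only. Leaving out a library leaves the pools compared in the wells of 1 condition, with no test. The members' median pool difference of 0.14 was then 0.33 without either control library and 0.14 without either agonist library, and 13 of the 32 members differed in direction between the agonist wells and the control wells. Leaving out each library makes the pools unequal between the groups, and the log2 fold changes then changed sign in 24 members. Among the mevalonate enzymes the ranges were -0.13 to 0.34 for Hmgcs1, -0.21 to 0.76 for Mvk, -0.51 to 0.34 for Pmvk, -0.48 to 0.13 for Mvd, -0.29 to 0.46 for Idi1 and -0.81 to 0.21 for Fdps. In the sterol branch they were -0.33 to 0.22 for Fdft1, -0.17 to 0.85 for Sqle, -0.13 to 0.57 for Lss, -0.29 to 0.27 for Cyp51, -0.11 to 0.22 for Msmo1, -0.11 to 0.36 for Nsdhl, -0.41 to 0.23 for Hsd17b7, -0.18 to 0.40 for Sc5d and -0.58 to 0.14 for Dhcr7. For the rest they were -0.14 to 0.85 for Scap, -0.90 to 0.018 for Stard4, -0.34 to 0.068 for Acly, -0.022 to 0.076 for Acaca, -0.21 to 0.46 for Scd1, -0.33 to 0.45 for Scd2, -0.53 to 0.34 for Elovl6, -0.52 to 0.63 for Nr1h3 and -0.057 to 0.59 for Abca1. Srebf1 (0.28 to 1.38), Srebf2 (0.20 to 0.68), Fasn (0.37 to 0.72) and Nr1h2 (0.51 to 1.75) stayed positive. Insig1, Abcg1, Mylip and Insig2 also kept their sign. Every such fit still holds a library of pool 2, and within pool 3 alone Srebf1 was at -0.11 and Nr1h2 at 0.08. The cause of the changes of sign was not tested. With 2 libraries a group and no block, intervals of members reached 0.61 to 1.135 log2 units to each side, which limits what could be detected.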
